A study of Mus musculus with 28 samples.

Results

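The collagen genes of the mouse genome were followed as the thalamic relay for vision, the dorsal lateral geniculate nucleus (dLGN), matured. A member was any gene whose symbol reads Col, a number, a and a number. There were 44 of them among 26581 genes listed in the deposited count tables, and 22706 of those genes, including all 44 collagens, were listed for every age. They were sorted by structure into 11 fibrillar genes, 8 basement membrane genes, 4 transmembrane genes and 21 others.

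Ribosomal RNA-depleted total RNA was sequenced from the dLGN of C57BL/6J mice kept as controls in standard housing, at embryonic day 18 (E18) and postnatal days P4, P10, P16, P20, P27 and P32. Each age had 4 libraries, 28 in all, and the labels describe 4 mice per age. The nucleus was microdissected from vibratome slices and the labels name no sorting of cells; the endothelial marker Cldn5 was above 0 in every library. The design compares each age with the one before. A library is called here by its age with its column number, 3 to 6.

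Collagens are secreted or membrane-bound proteins whose chains wind into a triple helix after prolyl and lysyl hydroxylation. Fibrillar collagens build the fibres of meninges, bone and vessel walls. Network-forming collagen IV is the scaffold of basement membranes, which in the brain lie around vessels and under the meninges. Transmembrane collagens sit in the cell membrane and shed their outer part, and several are made by neurons. Many of the remaining collagens decorate fibrils or form filaments, and were described first in cartilage, skin or muscle. In parenchyma of the brain most fibrillar collagen comes from fibroblasts of the meninges and around vessels, while endothelial and mural cells make collagen IV.

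The shallowest library (P10 library 4) held 8224851 reads and the deepest (P27 library 5) 40206549 reads. Levels are CPM, counts scaled to library size, with TMM factors over all 28 libraries. Before the TMM factors, 3 reads correspond to between 0.0746 and 0.365 CPM. The relay neuron markers Slc17a6 and Tcf7l2 were present in every library. Slc17a6 was low in library 3 at the later ages, with 143, 456, 715 and 679 CPM in P16 libraries 3 to 6 and 82.7, 474, 784 and 472 CPM in P32 libraries 3 to 6. Choroid plexus markers summed to between 188 and 1100 CPM at E18, highest in library 5, and to at most 73.5 CPM in any later library. All 4 E18 libraries and 1 of 4 P27 libraries held at least 100 CPM of Xist together with at least 10 CPM of 4 Y-linked genes, while all 4 P4 libraries held Xist alone. Labels of 4 mice for 4 libraries per age do not account for both kinds of reads in 1 library. Whether animals were combined is not known. Sex entered no model, and between P4 and E18 it cannot be told apart from age. The same holds between P32 and E18, as 2 P32 libraries held Xist alone and 2 held Y-linked reads alone. P10 had the same split as P32, so sex also differed in part between P10 and P4. Libraries with Xist alone and with Y-linked reads alone numbered 1 and 3 at P16, 3 and 1 at P20, and 2 and 1 at P27. The split therefore also differed between P16 and P10 and in each later comparison of adjacent ages. Changes in bulk RNA cannot separate fewer cells of a type from less RNA per cell.

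Summed over all 44 genes, collagen RNA was highest at P10. The mean of the summed level was 727 ± 188 CPM at E18, 1100 ± 223 at P4, 1628 ± 581 at P10, 1106 ± 319 at P16, 1066 ± 345 at P20, 779 ± 313 at P27 and 700.2 ± 186 at P32 (SD, n = 4 each). The 4 P10 libraries differed from each other, with 2444, 1336, 1117 and 1614 CPM in libraries 3 to 6. Of the 44 genes, 19 had their highest age mean at P10, 8 at P4, 6 at P20, 5 at E18, 5 at P16 and 1 at P27. None had it at P32, and 21 had their lowest age mean there, with a further 15 lowest at E18. No shares over all genes are given for these ages, so the counts are not shown to be particular to collagens.

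**Figure D1:**
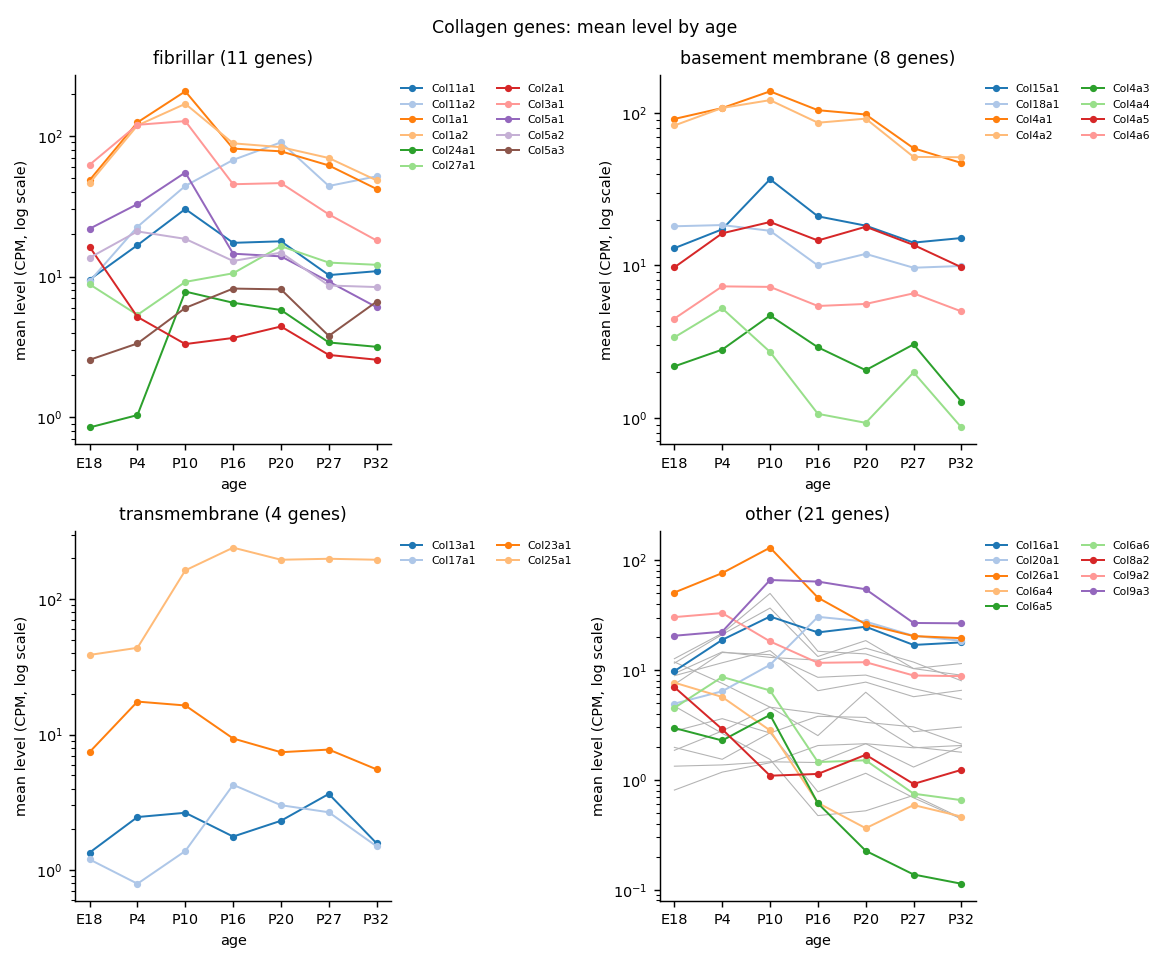
Mean level (CPM, log axis, 4 libraries per age) of every collagen gene against age, in 1 panel per class. Grey lines in the last panel are the other genes not described library by library; 19 of the 44 lines crest at P10, while Col25a1 and Col20a1 crest at P16 and Col6a4, Col6a5 and Col6a6 are below 1 CPM at P32.

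Marker sums of fibroblasts and vessel cells followed the collagen sums in some libraries and not in others. Fibrillar collagen in P10 libraries 3 to 6 came to 1293, 394, 404 and 620.5 CPM, and the 15 measured fibroblast markers to 142, 61.9, 63.4 and 59.7 CPM. Library 3 was the highest of the age in both. It was also the highest of the 4 for the 12 endothelial markers, which summed to 561, 332, 191 and 349 CPM, and for the 11 mural markers, which summed to 451, 280.4, 283 and 310.5 CPM. At P4, library 3 again had the highest fibroblast sum, with 263, 97.7, 91.7 and 82.6 CPM in libraries 3 to 6, beside a fibrillar sum of 666, 227, 451 and 541 CPM. Basement membrane collagens were lowest in library 5 at every age from P4 on, with 103 CPM at P16 against 259 to 323 CPM in the other P16 libraries. Endothelial markers were also lowest in library 5 at those ages except P27, where library 6 was lowest, and P16 libraries 3 to 6 had 595, 538, 275 and 379 CPM. At E18 the order differed, with a fibrillar sum of 294, 125, 167 and 374 CPM and a fibroblast sum of 74.7, 88.5, 47.3 and 56.1 CPM in libraries 3 to 6, so that library 4 was lowest in fibrillar collagen and highest in fibroblast markers. At P16 library 6 had the highest fibrillar sum, with 398, 336, 182 and 510.1 CPM in libraries 3 to 6, and the highest of neither the fibroblast sum, with 90.4, 84.7, 65.1 and 76.5 CPM, nor the endothelial sum. The defining fibroblast markers Dcn, Lum, Foxc1 and Slc6a13 were above 0 in every library, and Dcn had 34.8, 11.3, 9.13 and 8.17 CPM in P10 libraries 3 to 6. The part of these cells in the collagen results was not tested.

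**Figure D2:**
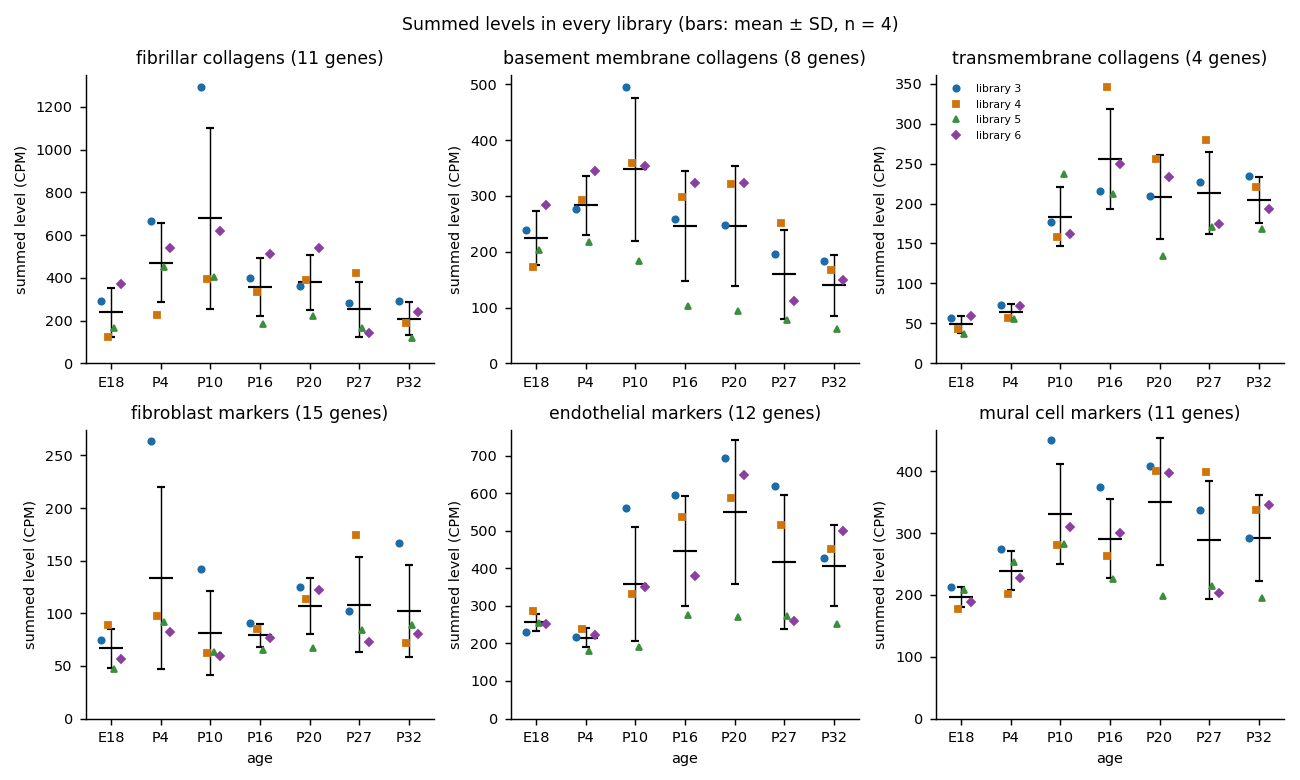
Summed level (CPM) of 3 collagen classes and of 3 marker lists in every library against age; points are libraries, marked by column number, and bars are mean ± SD (n = 4). P10 library 3 (circle) is the highest of its age for fibrillar and basement membrane collagens and for all 3 marker lists, while transmembrane collagens climb at P10 in all 4 libraries and stay up.

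Calls rest on edgeR's quasi-likelihood test, with Benjamini-Hochberg adjustment over all genes tested and a threshold of 0.05, and all 44 genes passed its filter on low counts in the first 3 comparisons. Where a call is said to be lost without certain libraries, each was left out on its own. Of the 44 genes, 11 overlap another listed gene. They are Col15a1, Col4a1, Col2a1, Col10a1, Col14a1, Col16a1, Col20a1, Col26a1, Col28a1, Col9a3 and Col13a1. The sources used here do not say whether counting used strand, so that shared reads cannot be told apart. Over the 7 ages together, 31 of the 44 collagens differed with age, against a background of 51% of all genes tested. These were 10 of 11 fibrillar, 4 of 8 basement membrane, 3 of 4 transmembrane and 14 of 21 other genes.

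P4 against E18 gave 3 higher collagens and no lower one, where 4.75% of all genes were higher and 3.12% lower. The median log2 fold change was 0.41 over the 44 collagens and -0.02 over all genes. Libraries of the same column number deviated alike from their age means here, at correlations of 0.461 to 0.785. No label says what the number stands for. With a block on the number 19 collagens were higher and 4 lower, against 15.8% and 13.6% of all genes. The collagen count was 1 without P4 library 6 and 1 without E18 library 5. It was 1 higher and 1 lower without P4 library 5 or without E18 library 3. All genes called numbered 1479 with every library, 896 without P4 library 6 and 774 without E18 library 5. They numbered 1101 without P4 library 5 and 1409 without E18 library 3.

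P10 against P4 gave 9 higher and 3 lower collagens, where 10.3% of all genes were higher and 8.16% lower, and the median log2 fold change was 0.39 over the collagens and -0.01 over all genes. Libraries of the same number correlated at 0.241 to 0.644 here. With the block 16 collagens were higher and 3 lower, against 18% and 18.1% of all genes. Without P10 library 3 the count fell to 6 higher and 1 lower. It was 6 higher and 0 lower without P10 library 6, and the same without P4 library 6. The 3 lower calls were also reduced to 0 without P10 library 5, with 11 higher, and to 1 without P10 library 4, with 8 higher. All genes called numbered 3267 with every library. They numbered 2377 without P10 library 3, 2082 without P10 library 6 and 2187 without P4 library 6. Lower calls over all genes numbered 1446 with every library, 1404 without P10 library 5 and 1202 without P10 library 4.

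P16 against P10 gave 2 higher and 11 lower collagens, where 6.2% of all genes were higher and 5.65% lower. Of the 44 log2 fold changes, 34 were negative, with a median of -0.63 over the collagens and 0.01 over all genes. The lower calls numbered 5 without P10 library 3, 6 without P10 library 4, 6 without P10 library 6 and 6 without P16 library 5. All genes called lower numbered 987 with every library. With the same libraries left out, in the same order, they numbered 694, 711, 588 and 609.

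**Figure D3:**
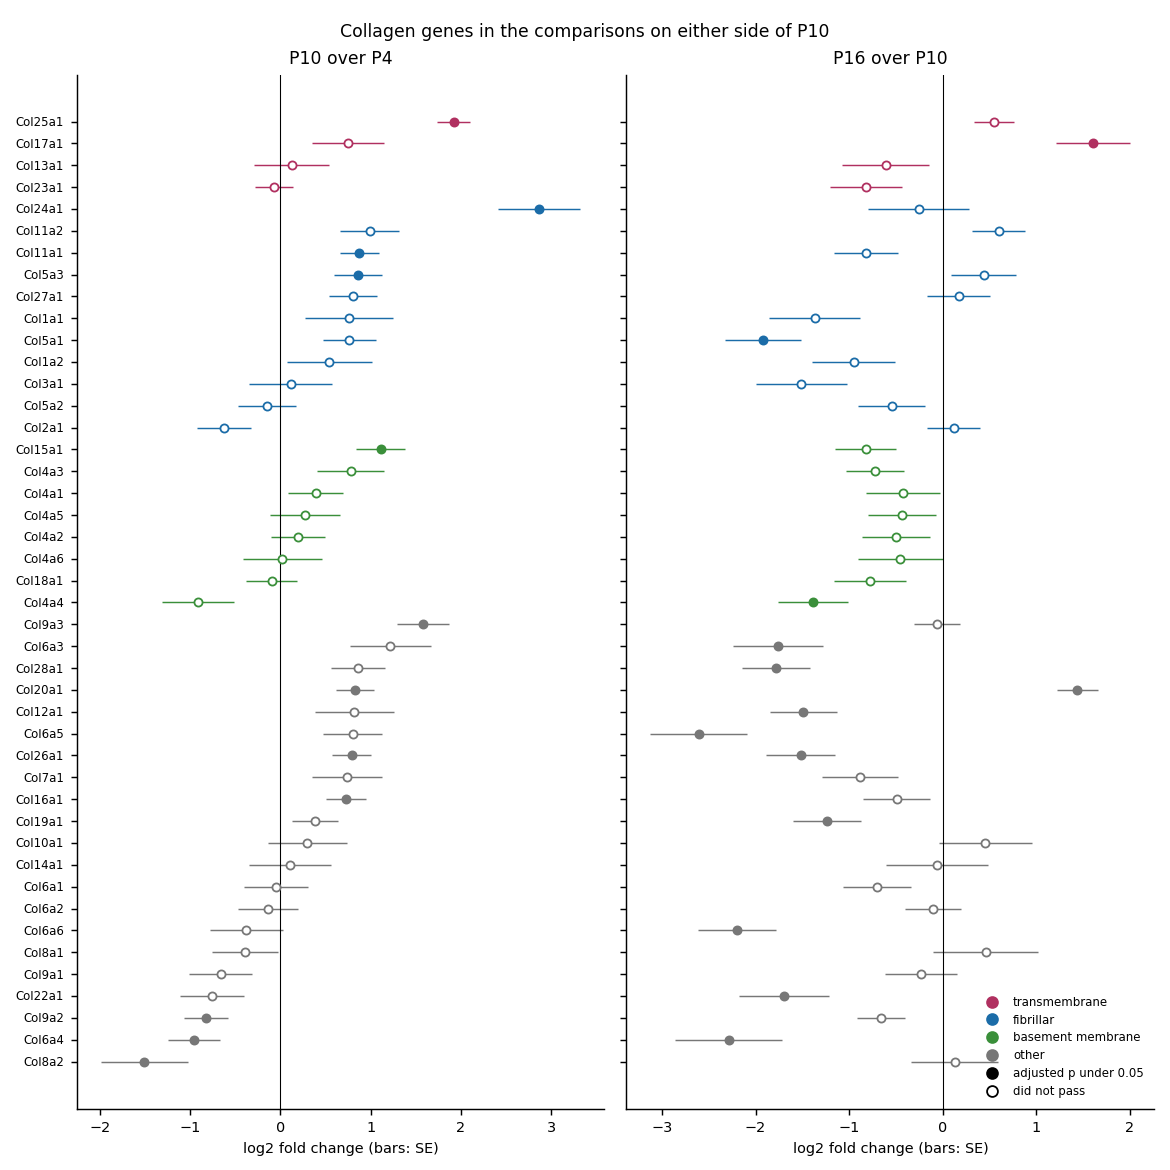
Log2 fold change with its SE for each of the 44 collagens, P10 over P4 in the left panel and P16 over P10 in the right; filled points passed the test. The filled points lie mostly right of 0 at P10 and left of 0 at P16, and Col20a1 is filled on the right in both.

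Among the fibrillar genes, Col1a1 and Col1a2, which encode the chains of collagen I, and Col3a1, whose product forms the fine fibres of vessel walls, were the most abundant per kilobase at E18, P4 and P10. Per kilobase of gene model, Col1a1 reached 44.05 CPM, Col1a2 32.9 CPM and Col3a1 22.9 CPM at P10, the highest 3 of the class. From P16 on Col11a2 stood above Col3a1, with 11.7 against 8.30 CPM per kilobase at P20. Col1a1 measured 167, 48.1, 126 and 158 CPM in P4 libraries 3 to 6, against 69.03, 14.9, 23.9 and 86.1 CPM in the E18 libraries. In 3 of 4 columns the P4 value was more than the highest E18 value, but the groups overlapped. The log2 fold change of 1.37 (SE 0.52, adjusted p = 0.153) did not pass, and with the block it was 1.54 and passed (adjusted p = 0.000135). Col1a2 behaved alike, at 1.36 (SE 0.42) with adjusted p = 0.0758 unblocked and 0.00018 blocked. Col3a1 measured 184, 51.98, 108 and 136 CPM in P4 libraries and 92.4, 30.2, 32.8 and 94.1 CPM in E18 libraries, with adjusted p = 0.24 unblocked and 0.000635 blocked.

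At P10 the collagen I genes spread widely. Col1a1 measured 449, 93.4, 106 and 182 CPM in P10 libraries 3 to 6 and Col1a2 measured 362, 86.8, 84.5 and 143 CPM, and P4 libraries 3 to 6 had 196, 54.6, 99.1 and 125 CPM of Col1a2. P10 library 3 lay above every P4 library for both genes, and for Col1a1 so did P10 library 6. Neither gene passed against P4, blocked or not (unblocked adjusted p = 0.302 and 0.454). By P16 Col1a1 was at 68.3, 68.2, 40.4 and 148 CPM and Col3a1 at 46.4, 33.8, 19.5 and 81.7 CPM, against 266, 65.7, 64.4 and 114 CPM of Col3a1 at P10. The log2 fold changes were -1.37 (SE 0.49, adjusted p = 0.0934) for Col1a1 and -1.51 (SE 0.48, adjusted p = 0.0641) for Col3a1, and neither passed. Between the ends of the series Col3a1 fell to 29.6, 14.8, 10.5 and 17.4 CPM in the P32 libraries, all below the lowest E18 value of 30.2 CPM, a log2 fold change of -1.78 (SE 0.53, adjusted p = 0.00696). P32 over E18 log2 fold changes were -0.21 (SE 0.52, adjusted p = 0.767) for Col1a1 and 0.06 (SE 0.47, adjusted p = 0.926) for Col1a2, and neither passed.

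Minor fibrillar chains took their own courses. Col24a1, a fibrillar gene described in mouse bone and cornea, was low at first, with 0.803, 0.486, 1.41 and 1.45 CPM in P4 libraries, and rose to 3.91, 11.6, 4.30 and 11.6 CPM in P10 libraries 3 to 6. All P10 values exceeded all P4 values, with a log2 fold change of 2.87 (SE 0.46, adjusted p = 0.0014), the largest of any collagen in that comparison. At P32 it averaged 3.17 ± 1.85 CPM, against 0.847 ± 0.336 CPM at E18 (SD, n = 4 each), a log2 fold change of 1.93 (SE 0.55, adjusted p = 0.0047).

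Col11a1 and Col11a2 encode chains of collagen XI, which sets fibril width in cartilage. Col11a2 measured 9.61, 18.5, 32.7 and 29.6 CPM in P4 libraries 3 to 6, against 7.61, 6.91, 11.4 and 11.2 CPM at E18. It passed narrowly, at 1.29 (SE 0.35, adjusted p = 0.0468), and not when any library but P4 library 3 was left out (adjusted p up to 0.133). Its mean was 44.1 CPM at P10, 67.5 at P16, 90.03 at P20, 44.1 at P27 and 51.6 at P32. Against P4 the P10 step was 0.99 (SE 0.33), with adjusted p = 0.0541 unblocked and 0.00902 blocked. At P32 the libraries held 57.9, 56.8, 23.6 and 68.1 CPM, all above E18, a log2 fold change of 2.48 (SE 0.40, adjusted p = 1.09e-05). Col11a1, chosen after its values were seen, reached 41.03, 22.6, 31.4 and 25.96 CPM in P10 libraries against 20.6, 12.7, 16.02 and 17.6 CPM in P4 libraries, at 0.87 (SE 0.22, adjusted p = 0.0168), which did not pass without P10 library 3. By P32 it had 20.5, 8.29, 3.77 and 11.2 CPM, overlapping E18. Per kilobase, the Col11a2 to Col11a1 ratio was 0.715, 1.43, 1.08 and 0.842 in E18 libraries, 1.18, 1.31, 1.60 and 1.66 in P10 libraries and 3.61, 7.07, 7.59 and 4.27 in P20 libraries. Every library from P16 on had a higher ratio than any library before P16, a pattern chosen after the values were seen and given without a test.

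Col5a1, a chain of collagen V that is built into collagen I fibrils, was the only fibrillar gene called at P16 and is named after its values were seen. It fell to 12.9, 26.6, 4.88 and 13.7 CPM in P16 libraries 3 to 6, against 64.5, 54.5, 34.1 and 66.5 CPM in P10 libraries. The groups did not overlap, and the log2 fold change was -1.92 (SE 0.41, adjusted p = 0.00835). Its partner chain Col5a2 had a log2 fold change of -0.54 (SE 0.36, adjusted p = 0.4) and did not pass. Col2a1, the main collagen of cartilage, was at its highest at E18 and reached 3.39, 1.79, 1.58 and 3.497 CPM at P32, against 6.92, 9.86, 16.7 and 31.7 CPM at E18, a log2 fold change of -2.65 (SE 0.41, adjusted p = 4.31e-06). Against E18 the P4 step of Col2a1 had adjusted p = 0.0544 unblocked and 0.0047 blocked. The third collagen V gene, Col5a3, rose at P10, with a log2 fold change of 0.86 (SE 0.27, adjusted p = 0.044), a call that did not hold without P10 libraries 3, 4 and 5 or P4 libraries 3, 4 and 5. It was also higher at P32 than at E18, a log2 fold change of 1.38 (SE 0.49, adjusted p = 0.0214), and there not without E18 libraries 3 and 5 or P32 library 6.

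**Figure D4:**
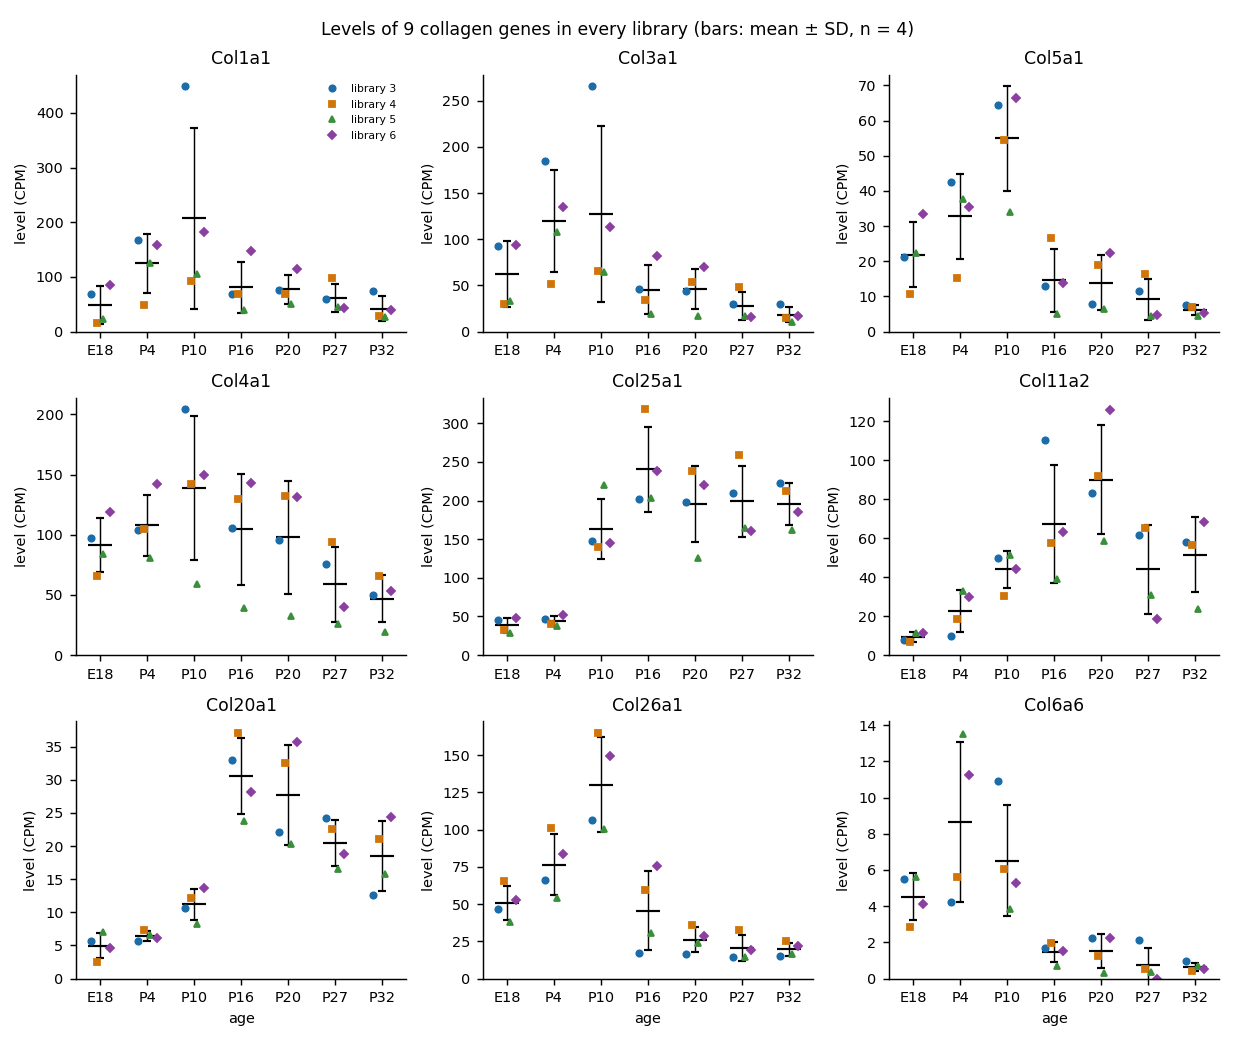
Level (CPM) of 9 collagen genes in every library against age; points are libraries, marked by column number, and bars are mean ± SD (n = 4). Col1a1 and Col3a1 are spread by P10 library 3 (448.6 and 265.7 CPM), Col25a1 and Col20a1 step up without overlap, at P10 and at P16, and Col6a6 drops at P16.

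The basement membrane genes were led by Col4a1 and Col4a2, whose products combine in the collagen IV of nearly all basement membranes, vessels included. They lie head to head, Col4a1 at chr8:11198423-11312826 on the minus strand and Col4a2 at chr8:11312829-11449287 on the plus strand (GRCm38), with deposited gene ends 3 bases apart. Their RefSeq promoter windows, from 250 bases before to 50 bases after each start on GRCm38.p6, are shown because they overlap. Capitals mark the 78 bases that the windows share, chr8:11312777-11312854, read from opposite strands.
Col4a1 (minus strand, chr8:11312777-11313076): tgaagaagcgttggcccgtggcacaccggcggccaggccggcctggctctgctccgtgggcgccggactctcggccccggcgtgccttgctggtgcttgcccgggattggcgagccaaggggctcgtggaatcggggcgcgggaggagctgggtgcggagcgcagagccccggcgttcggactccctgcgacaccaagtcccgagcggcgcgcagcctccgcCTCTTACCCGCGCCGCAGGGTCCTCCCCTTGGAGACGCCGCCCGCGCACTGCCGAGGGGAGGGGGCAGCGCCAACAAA
Col4a2 (plus strand, chr8:11312555-11312854): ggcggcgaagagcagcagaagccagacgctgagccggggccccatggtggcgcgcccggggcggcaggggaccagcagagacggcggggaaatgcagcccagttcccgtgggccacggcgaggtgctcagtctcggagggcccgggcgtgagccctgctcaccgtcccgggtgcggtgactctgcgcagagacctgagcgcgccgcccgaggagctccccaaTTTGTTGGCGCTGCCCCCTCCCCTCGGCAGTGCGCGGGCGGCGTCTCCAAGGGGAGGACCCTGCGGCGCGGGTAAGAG
GC made up 74% of the Col4a1 window and 73.7% of the Col4a2 window.

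The pair stayed side by side across the libraries. Col4a1 measured 204, 142, 59.1 and 149.6 CPM in P10 libraries 3 to 6 and Col4a2 measured 152, 148, 60.6 and 125 CPM, so that library 5 was lowest in both. At P32 Col4a1 was at 50.1, 65.8, 19.1 and 52.9 CPM and Col4a2 at 58.5, 69.99, 22.5 and 54.2 CPM, again lowest in library 5. Per kilobase, the Col4a1 to Col4a2 ratio lay between 0.62 and 1.36 in all 28 libraries, with 1.11, 0.985, 0.986 and 1.07 in P16 libraries 3 to 6. Neither gene passed in a comparison of adjacent ages without the block, and P10 over P4 log2 fold changes were 0.39 (SE 0.30) for Col4a1 and 0.19 (SE 0.30) for Col4a2. Over all ages Col4a1 passed (adjusted p = 0.0493) and Col4a2 did not (adjusted p = 0.0919). P32 over E18 gave -0.96 (SE 0.44, adjusted p = 0.0716) for Col4a1 and -0.69 (SE 0.43, adjusted p = 0.193) for Col4a2. With the block both passed as lower (adjusted p = 0.00141 and 0.00732), though column numbers did not pair every library at later ages. Every P32 value of Col4a2 lay below every E18 value.

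The other collagen IV genes were scarcer. Col4a3 and Col4a4, also head to head, with 72 bases between their gene ends and known from the glomerular basement membrane of kidney, stayed at or below 9.79 CPM. Col4a4, named after its values were seen, fell at P16 to 1.67, 0.792, 0.879 and 0.898 CPM, against 3.33, 2.23, 2.51 and 2.74 CPM at P10, with a log2 fold change of -1.39 (SE 0.37, adjusted p = 0.0292) that was lost when any library but P16 library 3 was left out. At P32 it had 1.42, 0.989, 0.453 and 0.591 CPM, every value below every E18 value, a log2 fold change of -1.94 (SE 0.49, adjusted p = 0.0018). Col4a5, on the X chromosome, measured 22.5, 7.97, 13.7 and 20.8 CPM in P4 libraries against 10.3, 4.17, 8.45 and 15.9 CPM in E18 libraries. It passed only with the block (adjusted p = 0.313 unblocked and 0.00208 blocked). Its neighbour Col4a6 likewise passed at P4 only with the block (adjusted p = 0.032).

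Col15a1, whose product links basement membranes to the fibrils below them, was the basement membrane gene called at P10. It rose to 53.2, 33.2, 29.1 and 31.6 CPM in P10 libraries, against 19.4, 9.62, 22.8 and 17.3 CPM in P4 libraries, without overlap and with a log2 fold change of 1.11 (SE 0.27, adjusted p = 0.0145). The call held with each library left out. Its step at P4 passed only with the block (adjusted p = 0.378 unblocked and 0.0466 blocked). Col18a1, the source of endostatin, passed in no unblocked comparison and averaged between 9.65 and 18.4 CPM at the 7 ages. At P32 Col15a1 averaged 15.1 ± 12 CPM, against 12.97 ± 2.34 CPM at E18 (SD, n = 4 each).

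Col25a1 was the most abundant transmembrane gene per kilobase. It encodes a neuronal transmembrane collagen whose shed ectodomain collects in amyloid plaques of human brain, and in mouse it is needed for motor axons to enter muscle. Its promoter window on the plus strand, chr3:130180595-130180894 (RefSeq, GRCm38.p6), is shown with those of Col1a2 and Col3a1, fibrillar genes with another time course, and capitals mark matches, on either strand, to CCAAT, to the TATA motif TATAAA or to the GC box GGGCGG.
Col25a1 (plus strand): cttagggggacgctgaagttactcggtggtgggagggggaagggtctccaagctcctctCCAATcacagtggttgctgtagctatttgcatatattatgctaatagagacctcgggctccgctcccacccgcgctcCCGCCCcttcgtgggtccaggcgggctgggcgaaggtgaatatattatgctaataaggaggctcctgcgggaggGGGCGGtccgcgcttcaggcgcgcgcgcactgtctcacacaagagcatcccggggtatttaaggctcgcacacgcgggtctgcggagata
Col1a2 (plus strand, chr6:4505368-4505667): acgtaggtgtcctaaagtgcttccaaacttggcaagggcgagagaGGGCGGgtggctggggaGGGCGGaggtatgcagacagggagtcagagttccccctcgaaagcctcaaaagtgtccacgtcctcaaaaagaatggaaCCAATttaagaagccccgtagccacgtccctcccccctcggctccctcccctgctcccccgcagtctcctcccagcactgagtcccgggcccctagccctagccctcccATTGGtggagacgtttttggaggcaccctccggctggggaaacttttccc
Col3a1 (plus strand, chr1:45311288-45311587): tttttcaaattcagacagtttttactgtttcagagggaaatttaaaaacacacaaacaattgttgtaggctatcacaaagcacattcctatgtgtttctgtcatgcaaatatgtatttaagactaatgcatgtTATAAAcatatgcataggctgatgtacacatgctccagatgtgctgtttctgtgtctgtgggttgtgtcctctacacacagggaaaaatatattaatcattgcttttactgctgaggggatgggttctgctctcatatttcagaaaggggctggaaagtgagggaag
Col25a1 and Col1a2 held CCAAT and GGGCGG matches and were 60% and 61% GC, while the Col3a1 window was 37.7% GC with a TATAAA match alone. RefSeq windows were found for 35 of the 44 genes, 38 windows in all. CCAAT occurred in 13 of the 38 (34.2%), against 37.4% of 32851 mouse promoter windows, TATAAA in 5 (13.2%), against 13.6%, and GGGCGG in 23 (60.5%), against 35.7%. These matches are letters in a window and not binding sites. The windows follow RefSeq starts, which can differ from the deposited gene starts. The deposited Col25a1 gene starts at chr3:130180320, so its window lies inside the counted gene. The deposited Col1a2 gene starts at chr6:4505697, beyond the end of its window.

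Col25a1 rose at P10 to 148, 139.9, 220.3 and 145 CPM in libraries 3 to 6, against 46.1, 39.9, 37.1 and 51.9 CPM in P4 libraries. Every P10 library exceeded every P4 library, the log2 fold change was 1.92 (SE 0.18, adjusted p = 6.62e-05), and the call held with each library left out. The P10 mean was 3.73 times the P4 mean. After P10 the means were 240.2 CPM at P16, 196 at P20, 199 at P27 and 196 at P32, and no later step passed. P32 libraries had 222, 212, 162 and 185 CPM and E18 libraries 45.8, 32.9, 28.3 and 48.1 CPM, a log2 fold change of 2.33 (SE 0.23, adjusted p = 1.75e-09). In P10 library 5, which had the lowest endothelial sum of the age, Col25a1 was at its highest of that age, a value flagged below as standing apart. Library 5 also had the lowest endothelial sum at P4, P20 and P32. There Col25a1 was instead at its lowest of the age, with 37.1, 125.4 and 162.5 CPM. At P32 its 23.9 CPM per kilobase stood against at most 9.39 CPM per kilobase for any other collagen.

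The other transmembrane genes were lower per kilobase. Col17a1 had its highest age mean at P16, as Col25a1 did, Col23a1 at P4 and Col13a1 at P27. Col23a1 rose at P4 to 22.6, 15.3, 15.8 and 16.5 CPM in libraries 3 to 6, against 8.47, 7.43, 5.57 and 8.29 CPM in E18 libraries, a log2 fold change of 1.24 (SE 0.21, adjusted p = 0.00505) that held with each library left out. It stayed at that level at P10, with 16.4 CPM, and averaged 5.54 ± 2.01 CPM at P32, against 7.44 ± 1.33 CPM at E18. Col17a1, a hemidesmosome component of skin, rose at P16 to 5.11, 6.33, 2.25 and 3.35 CPM, against 1.85, 1.45, 1.12 and 1.11 CPM at P10. The groups did not overlap, the log2 fold change was 1.61 (SE 0.40, adjusted p = 0.0204), and it did not pass without P10 libraries 5 and 6. Col13a1, a collagen of the neuromuscular junction, passed in no unblocked comparison. At P4 it passed with the block, with 3.09, 1.55, 2.57 and 2.65 CPM in P4 libraries against 1.58, 1.39, 0.944 and 1.48 CPM in E18 libraries (adjusted p = 0.108 unblocked and 0.0328 blocked).

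The remaining 21 genes held the sharpest declines. Col6a4, Col6a5 and Col6a6 encode long chains related to the collagen VI chain of Col6a3, and lie in a row on the minus strand of chromosome 9, with 27814 bases between Col6a6 and Col6a5 and 29675 bases between Col6a5 and Col6a4. Col6a6 fell at P16 to 1.67, 1.94, 0.684 and 1.51 CPM, against 10.9, 6.04, 3.84 and 5.26 CPM at P10, with a log2 fold change of -2.20 (SE 0.42, adjusted p = 0.00451). Col6a5 fell to 0.176, 0.648, 0.439 and 1.18 CPM, against 5.29, 3.94, 1.79 and 4.62 CPM, a log2 fold change of -2.61 (SE 0.52, adjusted p = 0.00564). Both calls held with each library left out.

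Col6a4 was down already at P10, with 4.07, 1.71, 2.98 and 2.52 CPM against 4.57, 4.96, 6.54 and 6.68 CPM at P4 and a log2 fold change of -0.96 (SE 0.29, adjusted p = 0.0372), a call that did not hold without P10 libraries 4, 5 and 6 or P4 libraries 5 and 6. At P16 it fell again to 1.23, 0.648, 0.0977 and 0.490 CPM, a log2 fold change of -2.29 (SE 0.57, adjusted p = 0.0211), and did not pass without P16 library 6 or P10 library 3. For all 3 genes every P16 value lay below every P10 value. At P32 Col6a4 had 1.42, 0.433, 0 and 0 CPM and Col6a6 had 0.963, 0.433, 0.679 and 0.542 CPM, and Col6a5 had 0.0837, 0.124, 0 and 0.246 CPM, against 4.29, 3.17, 2.78 and 1.63 CPM at E18. P32 over E18 log2 fold changes were -3.94 (SE 0.79) for Col6a4, -4.57 (SE 0.78) for Col6a5 and -2.77 (SE 0.69) for Col6a6, each with every P32 library below every E18 library. Col6a4 was at 0 in P32 libraries 5 and 6 and Col6a5 in P32 library 5, so the sizes of these fitted changes depend on few reads. The shorter collagen VI chains Col6a1 and Col6a2 passed in no unblocked comparison, though both passed at P4 with the block (adjusted p = 0.00495 and 0.0187), and P32 over E18 log2 fold changes were -0.44 (SE 0.52) and -0.21 (SE 0.34).

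Col26a1, a small secreted collagen described in mouse testis and ovary, was the most abundant of the remaining genes per kilobase at E18, P4 and P10. From P16 on Col9a3 was higher per kilobase, with 21.1 against 13.6 CPM per kilobase at P16 and 8.77 against 5.81 at P32. Col26a1 rose at P10 to 107, 165, 100.2 and 149 CPM, against 65.9, 101, 54.4 and 83.9 CPM at P4. The log2 fold change was 0.79 (SE 0.22, adjusted p = 0.0263). Col26a1 lost this call without P10 libraries 4 and 6 or P4 libraries 3, 5 and 6. At P16 it fell to 16.9, 59.6, 30.6 and 75.5 CPM, every value below every P10 value, a log2 fold change of -1.52 (SE 0.37, adjusted p = 0.0195), and did not pass without P16 library 5 or P10 libraries 4 and 6. At P4 it passed only with the block, with a log2 fold change of 0.60 (SE 0.24) and adjusted p = 0.177 unblocked and 0.000346 blocked. It ended at 19.5 ± 4.66 CPM at P32, against 50.8 ± 11.6 CPM at E18 (SD, n = 4 each), a log2 fold change of -1.38 (SE 0.34, adjusted p = 0.00148).

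The collagen IX genes Col9a1, Col9a2 and Col9a3, whose chains share a molecule on cartilage fibrils, parted at P10. Col9a3 rose to 61.5, 64.6, 40.8 and 97.2 CPM in P10 libraries, against 13.8, 20.99, 21.5 and 33.1 CPM in P4 libraries, a log2 fold change of 1.58 (SE 0.29, adjusted p = 0.00322), and held with each library left out. Col9a2 fell to 17.6, 17.7, 16.5 and 21.1 CPM, against 20.3, 43.2, 25.3 and 43.2 CPM, a log2 fold change of -0.83 (SE 0.24, adjusted p = 0.0346), and did not pass without P10 libraries 3, 4, 5 and 6 or P4 libraries 4 and 6. Per kilobase the Col9a3 to Col9a2 ratio was 0.615, 0.439, 0.771 and 0.693 in P4 libraries and 3.16, 3.30, 2.24 and 4.16 in P10 libraries. It was below 1 in all 8 libraries of E18 and P4 and above 1 in the other 20, a pattern seen in the data and not tested. The span of Col9a3 overlaps that of Tcfl5. Col9a1, named after its values were seen, was at 2.12 ± 1.17 CPM at P32, against 11.8 ± 2.30 CPM at E18, a log2 fold change of -2.47 (SE 0.44, adjusted p = 3.62e-05).

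**Figure D5:**
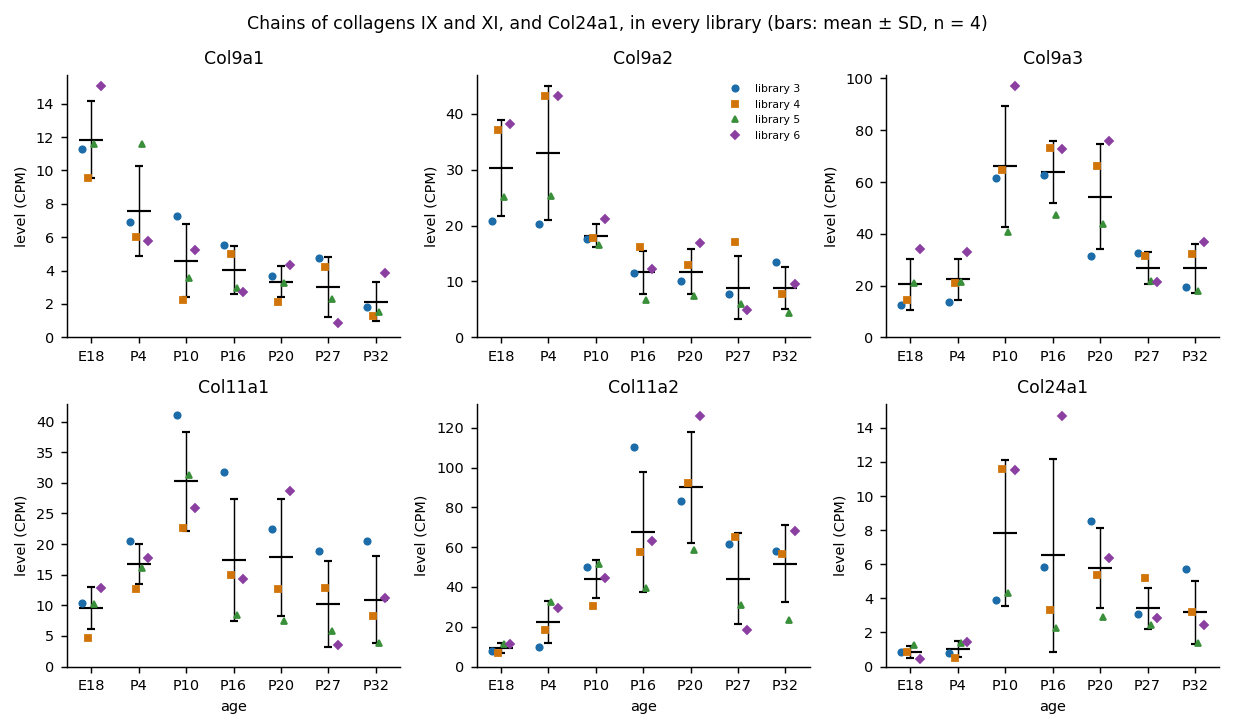
Level (CPM) of the collagen IX and collagen XI genes and of Col24a1 in every library against age; points are libraries, marked by column number, and bars are mean ± SD (n = 4). Col9a3 climbs at P10 while Col9a1 and Col9a2 decline from E18 or P4 on, and the highest mean of Col11a2 is at P20 (90.03 CPM) while that of Col11a1 is at P10 (30.2 CPM).

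Col20a1 and Col16a1 belong to the collagens that sit on fibrils with interrupted helices, and Col20a1 alone among the 44 was called higher in both P10 against P4 and P16 against P10. It reached 32.95, 37.1, 23.8 and 28.2 CPM in P16 libraries, against 10.7, 12.1, 8.20 and 13.7 CPM in P10 libraries, a log2 fold change of 1.44 (SE 0.22, adjusted p = 0.00123), a call that held with each library left out. Against P4, where libraries had 5.68, 7.29, 6.61 and 6.07 CPM, the log2 fold change at P10 was 0.83 (SE 0.21, adjusted p = 0.018), a call lost without P10 library 6 or P4 library 6. At P32 it stood at 18.5 ± 5.28 CPM, against 4.94 ± 1.88 CPM at E18, a log2 fold change of 1.90 (SE 0.26, adjusted p = 9.18e-07). Col16a1 rose at P4 to 16.6, 14.9, 21.6 and 22.3 CPM, against 8.50, 7.90, 9.67 and 13.02 CPM at E18, a log2 fold change of 0.95 (SE 0.22, adjusted p = 0.0228), not passing without P4 libraries 5 and 6 or E18 libraries 3 and 5. At P10 it was at 40.3, 28.2, 20.7 and 33.7 CPM and rose with a log2 fold change of 0.73 (SE 0.22, adjusted p = 0.0409), not passing without P10 libraries 3, 4 and 6 or P4 libraries 3, 4 and 6.

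Col8a2, a network collagen of the corneal Descemet's membrane, fell early. It had 0.529, 1.97, 1.06 and 0.812 CPM in P10 libraries, against 4.33, 1.65, 1.47 and 4.13 CPM in P4 libraries, a log2 fold change of -1.51 (SE 0.48, adjusted p = 0.0488), a call lost without P10 libraries 3, 5 and 6 or P4 libraries 3 and 6. The P4 step passed only with the block (log2 fold change -1.23 (SE 0.38), adjusted p = 0.0784 unblocked and 0.00859 blocked). At P32 it had 1.13, 1.79, 0.830 and 1.18 CPM, against 5.05, 5.56, 8.07 and 9.26 CPM at E18, all lower, a log2 fold change of -2.49 (SE 0.45, adjusted p = 4.14e-05).

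The other P16 declines were those of Col28a1, Col12a1, Col6a3, Col22a1 and Col19a1, named here after their values were seen. Col28a1, described around glia of mouse peripheral nerve, fell to 0.779 CPM at P16, against 2.69 CPM at P10, a log2 fold change of -1.78 (SE 0.36, adjusted p = 0.00658), and held with each library left out. Col12a1, a fibril-associated collagen of tendon and bone, fell with a log2 fold change of -1.49 (SE 0.36, adjusted p = 0.0177) and did not pass without P10 library 3. For Col6a3, the long chain of collagen VI, the log2 fold change was -1.76 (SE 0.48, adjusted p = 0.0319), lost without P16 libraries 5 and 6 or P10 libraries 3, 4 and 6. Col22a1, a collagen of muscle-tendon junctions, fell with a log2 fold change of -1.70 (SE 0.48, adjusted p = 0.038), lost without P16 libraries 3, 4 and 5 or P10 libraries 3, 4 and 6. Col19a1, which in mouse hippocampus is made by interneurons and needed for their synapses, fell with a log2 fold change of -1.24 (SE 0.36, adjusted p = 0.0441), lost when any library but P16 library 3 was left out. With the block at P10 against P4, 7 further genes passed, all higher: Col11a2, Col27a1, Col5a1, Col12a1, Col28a1, Col6a3 and Col7a1.

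After P16 no collagen passed. Background was 0% in each of the last 3 comparisons, where no gene of any kind was called. At an unadjusted p under 0.05 there was 1 of 41 collagens tested at P20 against P16 (Col7a1), 2 of 41 at P27 against P20 (Col9a3 and Col11a2) and 0 of 40 at P32 against P27, and DESeq2 called 0 in each. For P27 against P20, 35 of 41 collagen log2 fold changes were negative, with a median of -0.46 against -0.02 over all genes. They included all 11 fibrillar genes (median -0.76), all 18 tested of the remaining genes (median -0.52), 5 of 8 basement membrane genes and 1 of 4 transmembrane genes. Col11a2 measured 61.4, 65.3, 30.9 and 18.6 CPM in P27 libraries, against 83.4, 92.1, 58.6 and 126 CPM in P20 libraries, at -1.05 (SE 0.38, adjusted p = 0.929). In P27 libraries 3 to 6 the endothelial sum was 618, 514, 273 and 261 CPM, against 693, 587, 270.4 and 649 CPM at P20, and the fibrillar sum was 283, 423, 166 and 142 CPM, against 364, 390.4, 220.5 and 539 CPM. Libraries 5 and 6 were the low ones at P27 in both sums. Library 5 was already the lowest at P20 in both, while library 6 had the highest fibrillar sum of P20.

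Across the whole window, P32 against E18 gave 6 higher and 13 lower collagens, where 23.4% of all genes were higher and 24.1% lower. With the block 6 collagens were higher and 17 lower. Over all genes, 5232 were higher and 5691 lower with the block, against 4675 and 4824 without it. The genes named next are those called without the block. The higher genes were Col25a1, Col11a2, Col20a1, Col24a1, Col5a3 and Col10a1. The lower ones were Col2a1, Col3a1, Col5a1, Col4a4, Col8a2, Col9a1, Col9a2, Col22a1, Col26a1, Col28a1, Col6a4, Col6a5 and Col6a6. Col10a1, a collagen of hypertrophic cartilage, was at 2.55, 1.48, 1.58 and 2.61 CPM at P32, against 0.961, 0.174, 1.46 and 0.633 CPM at E18, a call lost without E18 libraries 4 and 6 or P32 libraries 3 and 6, and its span overlaps that of Nt5dc1. Col9a2 averaged 8.80 ± 3.76 CPM at P32, against 30.4 ± 8.63 CPM at E18 (SD, n = 4 each), a log2 fold change of -1.78 (SE 0.37, adjusted p = 0.000225).

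The counts for the lists below are to be read against the shares of all genes called, which for higher and lower genes were 4.75% and 3.12% at P4, 10.3% and 8.16% at P10, 6.2% and 5.65% at P16, and 23.4% and 24.1% for P32 against E18. With the block they were 15.8% and 13.6% at P4 and 18% and 18.1% at P10. No list was tested as a set. Of 35 genes for synthesis and processing, 5 were higher and 0 lower at P4 (11 and 3 with the block), 6 higher and 0 lower at P10, and 5 higher and 3 lower at P16, with none called afterwards. For P32 against E18, 10 were higher and 8 lower. The largest of these were Adamts2, which cuts the amino-terminal propeptide, with 41.9 ± 14.6 CPM at P32, against 3.12 ± 0.464 CPM at E18 and a log2 fold change of 3.74 (SE 0.29, adjusted p = 2.99e-11), and Tll1, a carboxy-terminal propeptide protease, at -3.18 (SE 0.36, adjusted p = 3.28e-08). Sparc, a collagen-binding glycoprotein also abundant in glia, had 677 ± 62.4 CPM at P32, against 76.6 ± 13.4 CPM at E18 and passed in that comparison. Plod1, a lysyl hydroxylase, rose with a log2 fold change of 2.45 (SE 0.23, adjusted p = 8.74e-10).

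Of the 10 measured collagen receptors, 2 were higher and 0 lower in P32 against E18: Lair1, an inhibitory receptor of immune cells, at 2.62 (SE 0.26, adjusted p = 1.87e-09), and Ddr1, a receptor tyrosine kinase, at 0.45 (SE 0.14, adjusted p = 0.0123). At P4 1 was higher and 1 lower (3 and 1 with the block), at P10 2 were higher and 0 lower, and at P16 1 was higher and 1 lower. Of 10 tested degradation genes, 4 were higher and 1 lower at P4, 2 higher and 2 lower at P10, and 1 higher and 2 lower at P16. Over P32 against E18, 3 were higher and 3 lower. Mmp9, a gelatinase, had 1.15 ± 0.391 CPM at P32, against 13.4 ± 1.32 CPM at E18, at -3.53 (SE 0.54, adjusted p = 4.53e-06), and Mmp2 changed with a log2 fold change of -1.58 (SE 0.33, adjusted p = 0.00022). The metalloproteinase inhibitors Timp4 and Timp3 rose with log2 fold changes of 2.82 (SE 0.30, adjusted p = 1.03e-08) and 1.82 (SE 0.18, adjusted p = 2.57e-09).

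Of 16 other basement membrane proteins, all tested at P4, 3 were higher and 1 lower at P4, at P10 3 of 15 were higher and 1 lower (8 and 1 with the block), at P16 0 were higher and 2 lower, and over P32 against E18 4 were higher and 5 lower. The laminin chains Lama2 and Lama5 rose with log2 fold changes of 2.60 (SE 0.31, adjusted p = 8.75e-08) and 2.57 (SE 0.40, adjusted p = 5.06e-06). Nid2, encoding nidogen, fell by 2.00 on the log2 scale, and Lamb3 had 0.105 ± 0.209 CPM at P32, against 1.28 ± 0.277 CPM at E18. Fibroblast markers gave 1 higher and 0 lower at P4 (8 and 0 with the block), 0 higher and 1 lower at P10 (0 and 7 with the block) and 0 higher and 1 lower at P16. At P10 against P4 the median log2 fold change was -0.70 over 13 tested fibroblast markers. Endothelial markers gave 0 higher and 1 lower at P4 (1 and 1 with the block), and mural markers 0 and 2 (3 and 3 with the block). At P10 endothelial markers gave 3 higher and 0 lower (8 and 0 with the block), and mural markers 2 and 0 (3 and 0 with the block). At P16 endothelial markers gave 2 higher and 0 lower, and mural markers 3 higher and 1 lower. Over P32 against E18, 1 of 15 fibroblast markers was higher and 2 lower, 4 of 12 endothelial markers were higher and 2 lower, and 6 of 11 mural markers were higher and 1 lower. In the same comparison 0 of 9 tested choroid plexus markers were higher and 7 lower, 1 of 7 cortex and hippocampus neuron markers was higher and 5 lower, and 2 of 9 relay neuron markers were higher and 4 lower.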

How the data were processed

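The authors deposited whole-number read counts per gene for each library, in 12 tables of genes higher or lower between adjacent ages, with their own fold (ratio of later over earlier age) and adjusted p-value per gene. Per the submitters' processing notes, reads were aligned to GRCm38 (mm10) with BWA and tested with edgeR 3.14.0. The deposited fold and p-value columns were used only as an alternative. The higher and lower tables were joined by gene identifier, and 96 other per-sample columns were not used. Each listed gene held at least 4 reads over the 8 libraries of a comparison.

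Counts were filtered with filterByExpr, scaled by TMM and tested with edgeR 4.0.16 (R 4.3.3), 8 libraries per pair of ages; the P32 against E18 and any-age tests used 1 fit of all 28 libraries. SE is the absolute log2 fold change over the square root of F. No label ties a replicate number to a column. Deviations of libraries with the same column number correlated at 0.461 to 0.785 between P4 and E18 and at 0.241 to 0.644 between P10 and P4, so blocked values stand beside those results; in later comparisons not every pair reached 0.1.

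Libraries held 8224851 to 40206549 reads. Values in every library were given for up to 4 genes per class by level per length and up to 3 called genes per direction and comparison by fold, with at least 1 CPM; other genes named were chosen after their values were seen. Members and gene lists were chosen with earlier results of these data known. The fitting was tested on simulated counts. DESeq2 1.42.0, other scalings, no filter, the block and leaving out each library were the alternatives.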

Additional observations from a re-analysis of the deposited data

Results flagged for a closer look

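In 5 of 154 groups of 4 libraries (22 genes at 7 ages) the highest library stood apart from the other libraries of its age by Dixon's criterion, where chance marks about 1 in 20 groups. Col13a1 was at 5.29 CPM in P10 library 3, against 1.59 to 2.1 CPM in the others, and at 5.17 CPM in P20 library 4, against 1.25 to 1.57 CPM. Col23a1 was at 22.6 CPM in P4 library 3, against 15.3 to 16.5 CPM, and at 22.1 CPM in P10 library 3, against 14.2 to 15.1 CPM. Col25a1 was at 220 CPM in P10 library 5, against 140 to 148 CPM.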

How the results depend on the processing

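For P4 against E18, 3 collagens were called, against 1 with total-count scaling, 8 with DESeq2's test and 7 in the authors' deposited table. There were 23 with the replicate block and 1 to 3 with a library left out. All genes called numbered 1479, against 1299, 2289 and 1800 under the first 3 of these alternatives. They numbered 5528 with the block and 774 to 1409 with a library left out. For P10 against P4, 12 collagens were called, against 19 with the replicate block and 5 in 1 fit of all 28 libraries. There were 5 with an absolute log2 fold change of at least 1, and 6 to 11 with a library left out. All genes called numbered 3267, against 6408 with the block, 2413 in 1 fit and 2082 to 3187 with a library left out. For P16 against P10, 13 collagens were called, against 20 with the replicate block and 7 to 13 with a library left out. In this comparison the column numbers do not pair every library. All genes called numbered 2071, against 3399 with the block and 1274 to 2509 with a library left out. With a library left out, the any-age count of 31 collagens ran from 26 to 33. The P32 against E18 count of 19 collagens ran from 17 to 20. In the last 3 comparisons the collagen count stayed at 0. Of 285 values of named genes under alternatives, 57 lost their call and 0 changed sign. Total-count scaling moved the median of all genes to -0.12 for P4 against E18 and to -0.28 for P32 against E18. The causes of these differences were not tested.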
